A study of Drosophila melanogaster with 4 samples.

Results

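Medium-width polymerase regions are the stretches of 4000 to under 8000 bp that the authors' list for the whole series types as enriched for RNA polymerase II on arms 2L, 3L and 3R of the Drosophila genome. Their width in that list is the value that chose them, so nothing about their width is a finding. They number 631 of the 5288 enriched regions of the series list, and of the 2958 that lie on these 3 arms. Another 1972 regions on the same arms are narrower (under 4000 bp) and 355 are broader (8000 bp or more). The medium-width regions make up 21.3% of the enriched regions of the 3 arms and 27.6% of the sequence they cover, 3.49 Mb in all.

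The cells are Kc167, an established line derived from Drosophila embryos, labelled female, of late embryonic stage and of genotype se/e. They carry no stated treatment, and every sample comes from this line. Polymerase was mapped by ChIP-seq, in which the DNA that an antibody pulls down from fixed chromatin is sequenced, with antibody ab5408, directed against the repeat of the carboxy-terminal domain of RNA polymerase II. Of the 4 samples, ChIP replicates 1 and 2 are antibody libraries and another 2 are input libraries; the labels do not say whether these are separate cultures, so the spread between replicates may be technical. The lists used are those of ChIP replicate 1, of ChIP replicate 2 and of the series as a whole, and the input libraries are not analysed here.

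RNA polymerase II transcribes protein-coding genes, and its carboxy-terminal domain is phosphorylated in steps as it leaves the promoter and travels along a gene. In Drosophila cells polymerase often pauses just downstream of the start, where ChIP signal is then concentrated, while on actively transcribed genes it is also found along the gene body and past its end. A region several kilobases wide can therefore hold a start, the body of a short gene, or neighbouring genes run together. The coordinates here are those of FlyBase release 5, per the file headers. No gene is assigned to a region, because no annotation of that release was used, so the labelled cell line was not checked against marker genes and no sequence is shown.

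The score of a region is the authors' own value, and its scale is not stated. It was read as a log2 scale, because 16 of 2926 pairs of scores repeated exactly in the series list were apart by the log2 of 1 of the whole numbers 3 to 10, powers of 2 left out, to within 1e-06. In replicate 1 this held for 7 of 4095 pairs and in replicate 2 for 4 of 2346. For the natural log and the log10 it held for 0 pairs in each list. What was divided by what is not stated, and the scores are used to describe and rank regions within a list. No p-value is given anywhere: regions are not replicates of a condition, and the series list in which they were chosen covers the same samples.

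The score of the medium-width regions lay between those of the other widths. Its median in the series list was 1.55 (exact binomial 95% interval of the median 1.48 to 1.63), against 0.94 for narrower regions and 1.82 for broader ones. The middle of the distribution, between the quartiles, ran from 1.18 to 2.05 in medium-width regions, from 0.39 to 1.71 in narrower ones and from 1.44 to 2.17 in broader ones. Very weak regions were few: 94 medium-width regions (14.9%) scored under 1, against 52.6% of the narrower and 4.51% of the broader. Very strong ones were few as well: 17 medium-width regions (2.69%) scored above 3, against 4.36% of the narrower and 1.97% of the broader. Of these 17, 4 lay on 2L, 7 on 3L and 6 on 3R. Within the medium widths, score and width had a Spearman rho of 0.14 over 631 regions that share their libraries. In broader regions it was 0.12 and in narrower ones 0.61, so a weak relation was not particular to medium widths. Over all 2958 regions of the 3 arms it was 0.56. The medium-width regions were chosen by width, which limits its range, so their value cannot be compared with that over all regions.

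**Figure D1:**
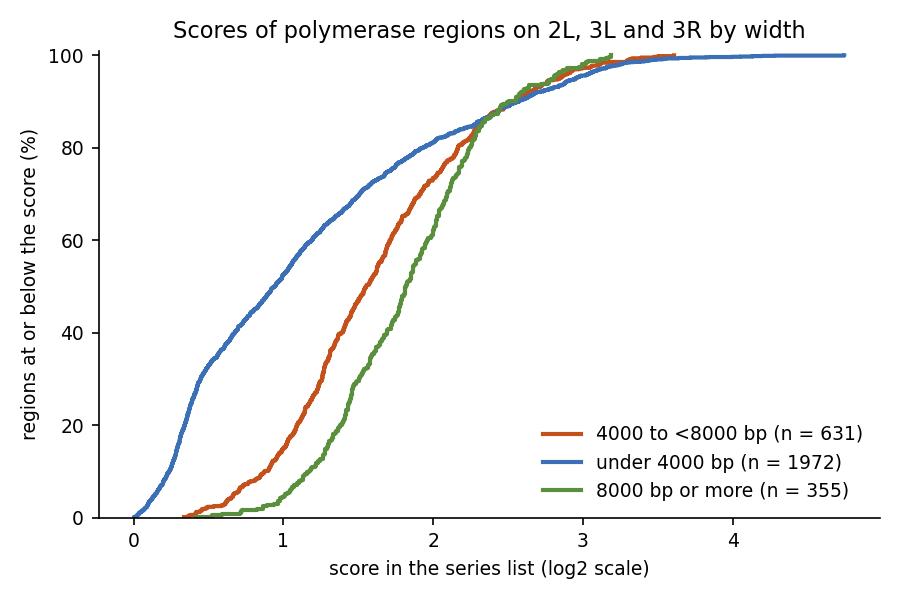
Cumulative share of regions (vertical axis, %) at or below each series score (horizontal axis, log2 scale) for medium-width, narrower and broader regions on 2L, 3L and 3R. The medium-width curve runs between the other curves up to a score of about 2, with medians of 1.55, 0.94 and 1.82 in that order, and only narrower regions reach scores above 3.61.

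The 6 highest-scoring members were each found as 1 region in both replicates. The strongest lay on 3R from 17121165 to 17126588, where the series score of 3.61 stood beside 3.60 in replicate 1 and 3.63 in replicate 2. A region on 2L from 3045667 to 3049841 scored 3.43 and 3.57 in the replicates. On 3L, the region from 7148845 to 7154824 scored 3.52 and 3.47, and the one from 3248253 to 3252753 scored 3.38 and 3.42. The mean of the replicates was 3.50 in both the second and the third, and the replicates of the second differed by 0.14, so their order is not settled. The other two were 2L from 9612340 to 9618036, with 3.27 and 3.38, and 3R from 12010333 to 12017165, with 3.29 and 3.37. The nearest neighbours of these 6 had series scores from 0.15 to 1.47. That they were weaker follows largely from choosing the 6 by their score, since 3.72% of all regions of the 3 arms scored above 3.

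The 4 lowest-scoring members were covered less evenly. On 3L, the region from 7806303 to 7811868 scored 0.34 in the series list and was covered over 68.8% of its length in replicate 1, by 1 region, and 65.5% in replicate 2, by 2 regions. The nearby region of 3L from 7827643 to 7831977 scored 0.36 and was covered over 72.0% and 60.3%. On 2L, the region from 809744 to 813955 scored 0.38 and was covered over 71.3% in replicate 1 and 97.0% in replicate 2. The fourth, on 3L from 16110575 to 16115836 with 0.37, had 2 regions in replicate 1, covering 93.4%, and none in replicate 2.

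The next comparison asked whether each medium-width region is 1 region or several narrower ones in the list of each ChIP replicate. Most were 1 region. A member counted as 1 region when exactly 1 enriched region of the replicate overlapped it by at least 1 bp, which held for 572 of 631 in replicate 1 (90.6%, with an exact 95% interval from 88.1 to 92.8). In replicate 2 it held for 581 (92.1%, 89.7 to 94.1). The same share over all enriched regions of the 3 arms was 83.1% in replicate 1 and 84.0% in replicate 2. Intervals cover counting error only, and treat regions as independent draws.

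Several regions were found in 58 members in replicate 1 (9.19%, 7.05 to 11.7) and 49 in replicate 2 (7.77%, 5.80 to 10.1), a mean of 8.48 ± 1.0% (SD, n = 2). Over all regions of the 3 arms the shares were 6.12% and 5.34%. Among narrower regions the mean was 0.18 ± 0.18%, and among broader ones 31.7 ± 3.8%. A region must be wide enough to hold several, and the narrowest region of the 3 arms measured 1301 bp in replicate 1 and 1308 bp in replicate 2. In all but 1 member per replicate the several regions were 2; the count of 3 was reached once in each.

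A member was missing from a replicate list once in each, 1 of 631 (0.16%, 0.004 to 0.88). The share of all regions of the 3 arms with no region was 10.8% in replicate 1 and 10.6% in replicate 2, and that of narrower regions 16.0 ± 0.11% (SD, n = 2). The member missing in replicate 1 lay on 3L from 14003939 to 14008032, scored 0.42 in the series list, and held 1 region of 1464 bp in replicate 2. The member missing in replicate 2 was that on 3L from 16110575, described above. No member was missing from both lists. The narrowest enriched region of the 3 arms measured 1001 bp in the series list, 1301 bp in replicate 1 and 1308 bp in replicate 2. The members missing here measured 4094 and 5262 bp in the series list. Whether a limit on width played a part was not tested. The caller's threshold is not stated, so a missing region does not show that signal was absent. No member overlapped a region typed as depleted, of which the 3 arms hold 55 in the series list, 7 in replicate 1 and 8 in replicate 2.

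The 2 replicates gave the same number of regions in 573 members (90.8%, 88.3 to 92.9), which is close to the 89.7% of all regions of the 3 arms. In 549 members (87.0%) this number was 1 in both. The members with several regions were partly the same in both replicates: 26 had several in both replicates, 32 in replicate 1 alone and 23 in replicate 2 alone. Of the 58 with several regions in replicate 1, 44.8% (31.7 to 58.5) also had several in replicate 2, and of the other 573, 4.01% (2.56 to 5.96) did. In the reverse direction the shares were 53.1% (38.3 to 67.5) of 49 and 5.50% (3.79 to 7.67) of 582. Over all regions of the 3 arms, 58.6% of those with several in replicate 1 had several in replicate 2, and 67.1% in the reverse direction.

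Members with several regions were weaker and wider than those with 1. The 26 with several in both replicates had a median series score of 1.20, with quartiles of 0.98 and 1.88, and a median width of 6154 bp. In the 54 with several in 1 replicate and 1 region in the other, the median score was 1.26 and the width 5810 bp. The 549 with 1 region in both had a median score of 1.60, with quartiles of 1.23 and 2.08, and a median width of 5238 bp. The score ranges of the groups overlapped almost wholly, from 0.48 to 2.86 in the first and from 0.36 to 3.61 in the last.

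By width, several regions were found in 3.56% of members from 4000 bp to under 5000 bp in replicate 1 and 4.74% in replicate 2 (n = 253). From 7000 bp upward the shares were 17.9% and 11.5% (n = 78), and the intervals of the narrowest and widest bins overlapped in replicate 2 but not in replicate 1. By score, with the members cut into 4 equal groups, several regions were found in the weakest group in 15.8% in replicate 1 and 13.9% in replicate 2 (n = 158). In the strongest group, from a score of 2.05 upward, the shares were 3.80% and 5.70% (n = 158). In the groups between, from weaker to stronger, they were 6.96% and 10.2% in replicate 1 and 6.96% and 4.46% in replicate 2. The shares thus did not fall steadily with score. The intervals of the weakest and strongest groups did not overlap in replicate 1 and overlapped in replicate 2.

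**Figure D2:**
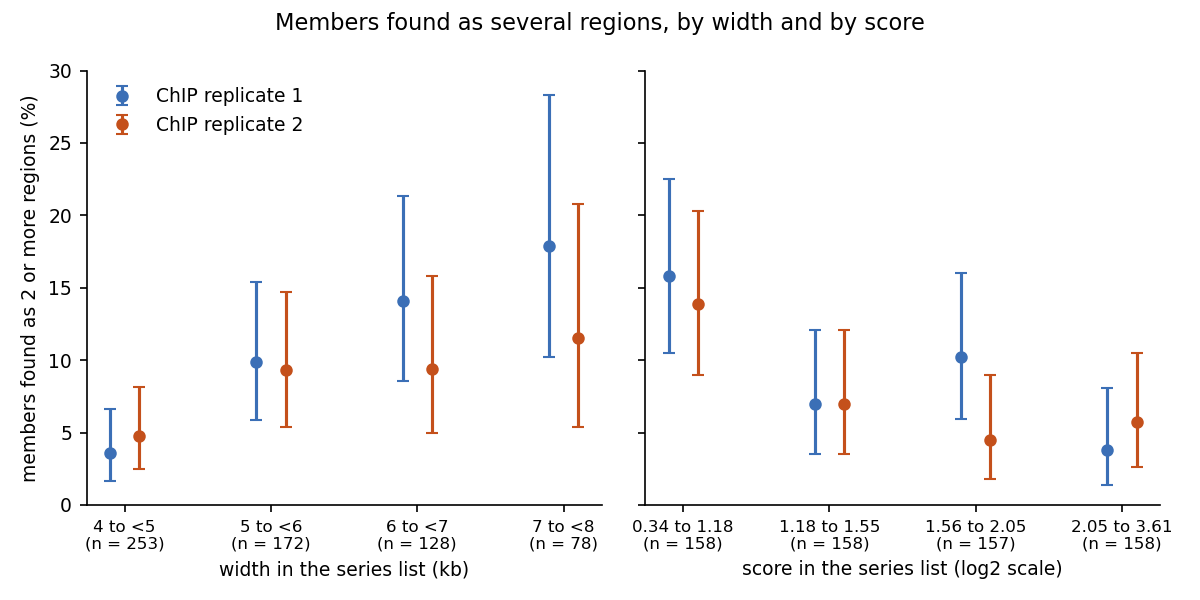
Share of members found as several regions (vertical axis, %) by series width in kb (left) and by 4 equal groups of the series score on the log2 scale (right), for ChIP replicate 1 and ChIP replicate 2; points are shares and bars exact 95% intervals, which cover counting error only. In replicate 1 the share was 3.56% in the narrowest bin and 17.9% in the widest; in the weakest group it was 15.8% and 13.9% in the replicates.

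The gaps that divided members were short. In replicate 1 the 58 members held 117 regions and 59 gaps, with a median gap of 245 bp and a range from 1 to 2649 bp. In replicate 2 the 49 members held 99 regions and 50 gaps, with a median of 207 bp and a range from 4 to 2114 bp. Gaps under 500 bp made up 43 of the 59 and 39 of the 50, and with regions less than 500 bp apart merged the share of members found as several regions fell to 2.14 ± 0.56% (SD, n = 2), against 8.48 ± 1.0% without merging. The regions themselves had median widths of 2551 bp in replicate 1 and 2401 bp in replicate 2, and 90.6% and 90.9% of them measured under 4000 bp. Members are under 8000 bp wide by the rule, so such widths follow largely from the choice of members.

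The regions within a divided member often differed in score. The median difference between the highest and lowest was 0.79 in replicate 1 and 0.84 in replicate 2, and it exceeded 1 in 23 of 58 members and 17 of 49. The widest region scored higher than the narrowest in 40 of the 58 and 37 of the 49. Where a member was divided in both replicates, the gaps overlapped in 23 of 26 members, and the centres of the nearest gaps were a median of 120.0 bp apart, within 250 bp in 20 of the 26.

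Of the 26 members divided in both replicates, 2 had 5 regions over both lists and the other 24 had 2 in each. Described here are those 2 and the 4 of the 24 with the highest series scores. On 3R from 11112786 to 11120592, replicate 1 had regions of 2159 bp (score 0.96) and 3416 bp (2.11). Replicate 2 had regions of 2192 bp (1.19), 2948 bp (2.10) and, at the right end, 1383 bp (0.42). The middle of that member was thus the strong part in both replicates, while its weak right end was listed in replicate 2 alone.

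On 2L from 20090078 to 20097975 the replicates differed the other way. Replicate 1 had 3 regions, of 2037 bp (0.53), 3208 bp (1.20) and 2477 bp (0.55), with gaps so short that 97.8% of the member was covered. Replicate 2 had 2 regions, of 5173 bp (0.95) and 2099 bp (0.45), which covered 92.1%.

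Other members paired a strong region with a weak one. On 2L from 2489170 to 2494348, the right region measured 3457 bp with 3.22 in replicate 1 and 3096 bp with 3.17 in replicate 2, beside left regions of 0.52 and 0.64. On 3L from 18613822 to 18620287, the right region measured 2359 bp with 3.33 in replicate 1 and 2331 bp with 3.23 in replicate 2, beside left regions of 1.04 and 0.99. Their series scores, 2.86 and 2.40, lay between those of their parts. On 3L from 2167878 to 2175478 the parts were alike, with 2.70 and 2.76 in replicate 1 and 2.69 and 2.28 in replicate 2.

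The member on 2L from 21424008 to 21431280 was the least covered of the 6, over 56.9% in replicate 1 and 45.2% in replicate 2. Replicate 1 had regions from 21424016 to 21426217 and from 21427938 to 21429876, both with 2.38. Replicate 2 had regions from 21427932 to 21429872 (2.64) and from 21429922 to 21431265 (2.70). The replicates thus shared the middle region, and each had another at an opposite end.

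**Figure D3:**
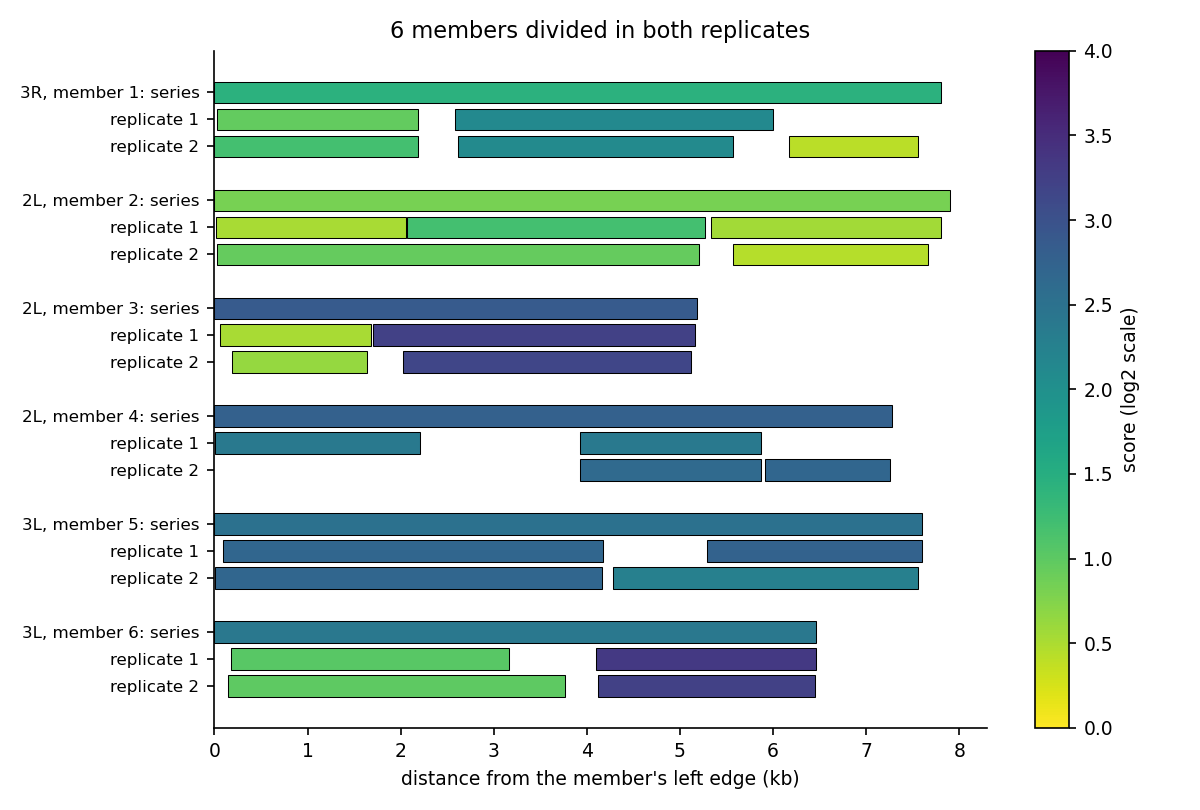
The 2 members with the most replicate regions and the 4 highest-scoring of those with 2 regions in each replicate, each drawn from its left edge (horizontal axis, kb) as its series region above the regions of replicate 1 and replicate 2, coloured by score on the log2 scale. A gap of replicate 1 overlaps one of replicate 2 in the members numbered 1, 2, 3, 5 and 6, while in number 4 the replicates share only the middle region.

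Members found as 1 region could still be narrower in a replicate than in the series list. That region covered 90% or more of the member in 425 members in replicate 1 (67.4%) and 480 in replicate 2 (76.1%), and under 75% in 59 (9.35%) and 39 (6.18%). Over all regions of the 3 arms, 1 region covered 90% or more in 67.3% and 71.3%, and under 75% in 4.80% and 3.92%. It measured under 4000 bp itself in 95 members (15.1%) in replicate 1 and 86 (13.6%) in replicate 2, and 4000 to under 8000 bp in 477 (75.6%) and 494 (78.3%). Over all 631 members the median covered length was 97.2% in replicate 1 and 97.7% in replicate 2, and 68.0% were covered by 90% or more in both, against 64.8% of all regions of the 3 arms.

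The shortfall was mostly at 1 edge. Among the 549 members with 1 region in both, the replicate region ended more than 500 bp short at 1 edge alone in 119 in replicate 1 and 85 in replicate 2, and at both edges in 7 in each. In 68 of the 147 with such an edge in either replicate, the same edge was short in both. The replicates reached beyond both edges of the series region in 5 and 4 members. The median distance between the replicates was 44.0 bp at starts and 32.0 bp at ends.

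**Figure D4:**
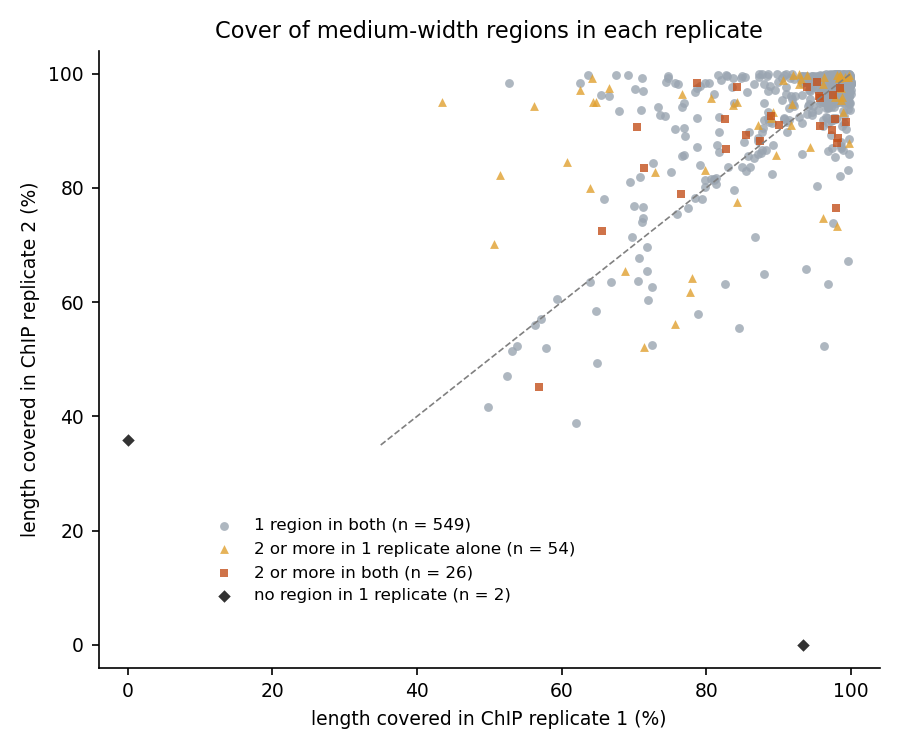
Length of each of the 631 members covered by enriched regions in ChIP replicate 1 (horizontal axis, %) and ChIP replicate 2 (vertical axis, %), marked by the number of regions found; the dashed line marks equal cover. Most of the 549 members with 1 region in both lie near the upper right corner, and the 2 members with no region in 1 replicate lie on the axes.

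Covered lengths differed by more than 25 percentage points between replicates in 26 members (4.12%), and by 10 or less in 82.1%; over all regions of the 3 arms these shares were 7.34% and 84.2%. After the member on 3L from 16110575, the difference was greatest on 3L from 23670598 to 23675931, with 43.5% in replicate 1 and 51.5 percentage points more in replicate 2, where a second region of 2382 bp was listed. On 2L from 16267195 to 16273866 the cover was 52.7% and 98.3%, and on 3L from 21327386 to 21332454 it was 96.3% and 52.4%. All 4 scored under 1 in the series list.

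Scores of members were close in the replicates. For each member the scores of its replicate regions were averaged, weighted by overlap. Length without a replicate region did not enter this mean, so it also depends on which parts of a member were listed. The median was 1.60 in replicate 1 and 1.61 in replicate 2, and over the 629 members found in both Pearson r was 0.98 and Spearman rho 0.98, a description of 2 libraries across regions. The scores differed by 0.018 on average with an SD of 0.13, replicate 2 being higher in 378 of the 629, and lay within 0.25 of each other in 94.3%. In 7 members (1.11%) they were more than 0.5 apart, and 6 of these 7 had another number of regions in each replicate. Members were no closer in this than regions in general. Over the 2564 regions of the 3 arms found in both, 95.7% lay within 0.25 and 0.585% were more than 0.5 apart. Pearson r and Spearman rho were both 0.99 there.

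Regions chosen by width in the list of 1 replicate could be looked up in the other, which the choice had not used. Of the 601 regions of 4000 to under 8000 bp in replicate 1, 575 (95.7%, 93.7 to 97.2) were 1 region in replicate 2, 26 were several and 0 were missing. Of the 606 in replicate 2, 556 (91.7%, 89.3 to 93.8) were 1 region in replicate 1, 50 were several and 0 were missing; with 0 of 606, the exact interval allows up to 0.61%. The width class was kept by 503 of the 601 (83.7%) and 497 of the 606 (82.0%). Regions of other widths were not looked up in this way, so these shares have no background and do not mark out medium widths. In the series list, 488 of the 601 lay mostly in a medium-width region and 112 in a broader one, and for the 606 these numbers were 502 and 102.

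Medium-width regions had near neighbours about as often as regions in general. The gap from a member to the nearest enriched region of the series list had a median of 1927 bp (exact binomial 95% interval of the median 1652 to 2216), against 2868 bp for narrower and 1575 bp for broader regions. It was under 1000 bp in 212 members (33.6%), against 28.7% of the narrower and 40.0% of the broader, and 31.1% of all regions of the 3 arms. In 30 members (4.75%) both neighbours were this close, and in 99 (15.7%) both were over 10000 bp away. For all regions of the 3 arms the shares were 4.09% and 19.1%. The nearest neighbour was narrower in 385 members (61.0%), medium-width in 156 (24.7%) and broader in 90 (14.3%). Over all regions of the 3 arms these shares were 64.9%, 21.7% and 13.4%.

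**Figure D5:**
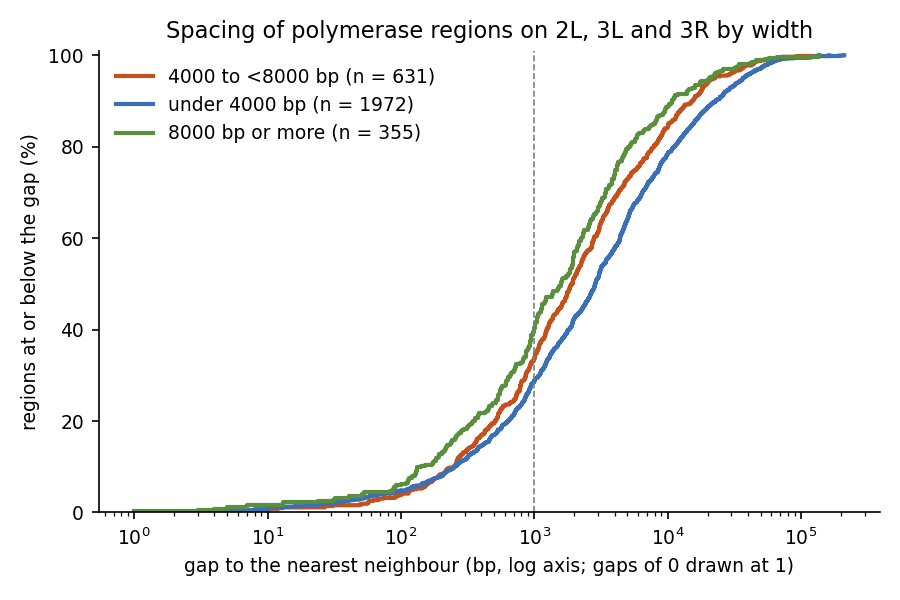
Cumulative share of regions (vertical axis, %) at or below each gap to the nearest enriched region of the series list (horizontal axis, bp on a log axis) for medium-width, narrower and broader regions; the dashed line marks 1000 bp. At that gap the curves stand at 33.6%, 28.7% and 40.0% in that order.

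The nearest neighbour was usually the weaker of the pair: it scored lower than the member in 406 of 631 (64.3%), with a median of 1.28. The same held for 43.8% of the narrower regions, 74.6% of the broader and 51.9% of all regions of the 3 arms. Members with a neighbour under 1000 bp away had a median score of 1.45 and those neighbours 1.03, while the 99 members with both neighbours over 10000 bp away had a median of 1.67. Over all regions of the 3 arms, those with a neighbour under 1000 bp away had a median score of 1.14. Those with both neighbours over 10000 bp away had 1.44. Score and gap had a Spearman rho of 0.17 across the 631 members, 0.17 in narrower regions, 0.11 in broader ones and 0.11 over all regions of the 3 arms. Counted only to the 1473 regions of the 3 arms that scored at least the series median of 1.27, the median gap of members was 6233 bp, with fewer neighbours to count.

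Close neighbours were rarely joined to members in the replicates. Some were not listed there, as was the case for regions in general. In 212 members the nearest neighbour was under 1000 bp away. That neighbour was found in replicate 1 for 181 of them (85.4%, 79.9 to 89.8) and in replicate 2 for 183 (86.3%, 80.9 to 90.6). Counts go by member, so a region nearest to several members counts for each. Among all regions of the 3 arms, 89.2% and 89.4% were found, shares that lie within those intervals. For 19 members the neighbour was found in neither list. Those neighbours were weak and narrow, with medians of 0.34 for the score and 1372 bp for the width. Joining was rare: no region of replicate 1 and 2 regions of replicate 2 spanned several series regions of the 3 arms, and 1 member was joined in this way. For the 549 members with 1 region in both, the median gap measured within the replicate lists was 2723 ± 103 bp (SD, n = 2), against 1774 bp in the series list.

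The members farthest from any neighbour were not alike in form. On 2L from 15498086 to 15505605 the nearest region was 163080 bp away, and 1 region covered 99.6% and 99.7% of the member, with scores of 1.69 and 1.64. On 3L from 17230484 to 17236194, 92818 bp from its neighbour, 1 region covered 98.3% and 99.8%. On 3R from 26708300 to 26715779, 72668 bp away, 1 region covered the right part alone, 49.8% and 41.6% of the length, with scores of 1.73 and 1.72. The member on 2L from 2489170 to 2494348, 67305 bp away, was the divided one described above. In all, 7 of 631 members lay over 50000 bp from any other region, as did 66 of all 2958 regions of the 3 arms.

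Runs of consecutive medium-width regions along the arms are given as a description. Members made up 21.3% of the enriched regions of the 3 arms, and the runs that a random order would give were not computed. Of the 631, 373 were next to no other member, 168 came in runs of 2 consecutive members, 66 in runs of 3 and 24 in runs of 4. The 6 runs of 4 lay on 2L and 3L. The most compact spanned 27.7 kb of 2L from 6464511 to 6492222, with scores from 1.34 to 2.59, and the members covered 79.0% of it. Another pair of runs on 2L, from 10310268 to 10343856 and from 10384103 to 10415110, were covered by their members over 64.9% and 81.0% of their spans.

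The arms carried similar numbers of members. There were 8.21 per Mb on 2L (189 members, exact Poisson 95% interval 7.08 to 9.47), 8.60 on 3L (211, 7.48 to 9.84) and 8.28 on 3R (231, 7.24 to 9.42), so the differences lay within counting error. They made up 21.5%, 21.2% and 21.3% of the enriched regions of those arms. Median scores were 1.64 on 2L, 1.51 on 3L and 1.53 on 3R. Several regions were found on 3R in 14 of 231 members in replicate 1 (6.06%) and 10 in replicate 2 (4.33%). On 2L the shares were 11.1% and 9.52%, and on 3L 10.9% and 9.95%. The lower share on 3R was thus seen in both replicates, but it was noticed in these values and not tested.

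Along the arms the members were unevenly placed. In 74 whole bins of 1 Mb the median was 8.00 members, with quartiles of 6.25 and 11.0. The most, 20 of 54 enriched regions (37.0%), lay on 2L from 10000001 to 11000000, the bin that also holds 3 of the runs of 4. Next came 17 of 48 (35.4%) on 3L from 9000001 to 10000000 and 17 of 64 (26.6%) on 3R from 20000001 to 21000000. On the 3 arms together members made up 21.3% of the enriched regions. The bin of 2L from 14000001 to 15000000 held 14 enriched regions and no member. Bins with more members had more of the other enriched regions too (Spearman rho 0.52 over 74 bins, which share their libraries).

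The regions just inside and just outside the limits of the rule are given as a description. The narrowest members were 2L from 19429748 to 19433752, with 4005 bp and a score of 1.87, and 2L from 16885636 to 16889642, with 4007 bp and 2.38. Just under the limit were 3R from 7787354 to 7791343, with 3990 bp and 1.03, and 3R from 20848113 to 20852097, with 3985 bp and 1.18. The widest members were 3R from 17857180 to 17865156, with 7977 bp and 1.30, and 3R from 1681095 to 1689065, with 7971 bp and 1.86. Just over the limit were 3L from 21814048 to 21822049, with 8002 bp and 1.59, and 2L from 4441822 to 4449826, with 8005 bp and 1.39. Each of these 8 was 1 region in both replicates.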

How the data were processed

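Polymerase regions came from 3 lists: 1 for each ChIP library and 1 for the whole series. The submitters' processing notes name Bowtie 0.12.7. Coordinates are of FlyBase release 5, per the file headers. For the caller, its threshold, the control and the way replicates entered the series list, nothing is stated in the labels or headers. The authors deposited 1 score per region, above 0 where typed as enriched and below 0 where typed as depleted. The lists hold no counts, so depth is unknown, and how far the number, width and spacing of regions depend on it was not examined.

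Enriched regions were used as deposited. Overlap was at least 1 bp; covered length is the share of a member under regions of a replicate; gaps are bases between regions of a list. Intervals are exact (Clopper-Pearson or Poisson, 95%) and cover counting error only. Overlap counts were the same with bedtools 2.31.1 in 631 of 631 members per replicate, and the code was tested on simulated data. Python 3.11.15 was used with scipy 1.17.1, numpy 2.4.6, matplotlib 3.10.9 and pandas 2.3.3.

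The members and lists were chosen with earlier results of these data known. Regions named are the 6 highest and 4 lowest series scores, the 6 with the most replicate regions (ties by higher series score), the 4 longest gaps, the 4 with the most unlike cover, members with no region, and those at the width limits; the members with no region in 1 replicate, the runs and the 1 Mb bins were chosen after their values were seen. The alternatives tried were merging of regions under 500 bp apart, 50% of a replicate region's own length, members at or above their median score, widths of 5000 to under 7000 bp, stricter neighbours, each replicate alone and regions chosen in 1 replicate.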

Additional observations from a re-analysis of the deposited data

How the results depend on the processing

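Of 40 alternative values, 23 stayed within the replicate SD or the exact interval of the value reported. This count says little about robustness, because some of its values could not move. For the shares and the covered length, each replicate alone lies within the replicate SD of their mean by construction. The share of members found as 1 region (91.4%) was 97.7% with regions under 500 bp apart merged, 93.7% for members at or above the median score, 89.3% at widths of 5000 to under 7000 bp and 93.7% for regions chosen in 1 replicate and looked up in the other. The share found as several regions (8.48%) was 2.14%, 6.33%, 10.5% and 6.29% in that order. The share with no region (0.158%) was 0% at or above the median score, 0.167% at widths of 5000 to under 7000 bp and 0% for regions chosen in 1 replicate. The share with the same number in both replicates (90.8%) was 97.0% after merging and 94.3% at or above the median score, where the median covered length (97.4%) was 98.2%. The median gap (1927 bp) was 6233 bp to neighbours at or above the median score, since fewer neighbours count. Members per Mb (8.36) came to 3.98 at widths of 5000 to under 7000 bp and 4.19 at or above the median score, since fewer regions qualify. The causes of the other movements were not tested. With 1 replicate at a time these shares were 90.6% to 92.1%, 7.77% to 9.19%, 0.158% in both and, for covered length, 97.2% to 97.7%, and the median score was 1.60 to 1.61. Looking regions up between replicates was chosen after seeing the data. No paired analysis was possible because regions of the ChIP libraries alone were used, and they have no partner group. With depth unknown, its part in the weak members was not examined.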
